A study of Mus musculus with 6 samples.

Results

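Alternative activation and type 2 marker genes were followed in colonic lamina propria macrophages (MΦs) of mice with and without the IL10 receptor β chain. The set held 10 of the 14097 genes in the expression table: the receptor and transcription factor genes Il4ra, Stat6 and Pparg, the lectin genes Mgl2 and Clec10a, the chemokine gene Ccl24, the secreted products Retnla and Chil3, and the ribonuclease genes Ear2 and Rnase2a. All 10 were found by symbol, and all 10 reached 50 normalized counts in at least 1 library. Ear2 and Rnase2a were picked on these same measurements, for their lower values in Il10rb-/- MΦs, so their genotype ratios are a description and carry no test.

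The cells were P3/P4 MΦs, the resident fraction gated as CD64+ MHCII+ and CD11b+ with intermediate CD11c among CD45+ cells without Ly6C or CD103, sorted from untreated 129SvEv mice and sequenced without culture. There were 6 libraries, 1 for Il10rb-/- and 1 for Il10rb+/- mice at each of 1, 3 and 12 weeks of age. The 1-week libraries came from pooled colons and the others from single mice, and the mice lacked the receptor chain in every cell of the body, not in MΦs alone. The Il10rb+/- mice, called controls here, were heterozygous littermates, so both groups carried the deleted allele, and no wild-type mice were sequenced. Il10rb itself, at 939 to 1221 normalized counts in the Il10rb+/- libraries and 12.0 to 27.4 in the Il10rb-/- libraries, matched the labels at every age. The libraries held 6700337 to 40754971 reads on the listed genes, with the 3-week Il10rb+/- library the shallowest.

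Type 2 cytokines act on MΦs through the IL4 receptor α chain, which pairs with the common γ chain to bind IL4 or with IL13Rα1 to bind IL4 and IL13. Janus kinases on these chains phosphorylate STAT6, which enters the nucleus and binds palindromic DNA elements, TTC and GAA with 4 bases between them, beside genes such as Retnla and Chil3. PPARγ, a lipid-sensing nuclear receptor, is part of the same program, and in the gut many of these genes also mark resident MΦs at rest.

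The promoter windows below are shown because they are the part of these genes that a transcription factor such as STAT6 would read, and because the Ear2 and Rnase2a windows are alike. They run from 250 bases before to 50 bases after the RefSeq start (GRCm38.p6), and are written 5′ to 3′ on the gene's strand with matches to the STAT elements in capitals, either TTC and GAA with 4 bases between them or the same letters with 3 bases between them. Both elements read the same on the 2 strands.
Retnla, chr16:48842359-48842658, plus strand: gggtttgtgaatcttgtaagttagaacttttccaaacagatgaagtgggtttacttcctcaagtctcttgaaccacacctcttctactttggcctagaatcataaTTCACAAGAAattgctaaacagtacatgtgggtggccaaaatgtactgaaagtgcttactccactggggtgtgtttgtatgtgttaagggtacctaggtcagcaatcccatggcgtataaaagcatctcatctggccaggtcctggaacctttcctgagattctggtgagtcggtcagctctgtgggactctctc
Chil3, chr3:106167515-106167814, minus strand: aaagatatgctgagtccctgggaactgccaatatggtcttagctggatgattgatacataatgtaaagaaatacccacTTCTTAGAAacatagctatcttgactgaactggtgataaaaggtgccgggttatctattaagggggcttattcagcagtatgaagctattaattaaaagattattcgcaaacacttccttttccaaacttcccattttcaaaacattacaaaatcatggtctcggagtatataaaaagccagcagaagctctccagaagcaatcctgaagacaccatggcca
Ear2, chr14:44102404-44102703, plus strand: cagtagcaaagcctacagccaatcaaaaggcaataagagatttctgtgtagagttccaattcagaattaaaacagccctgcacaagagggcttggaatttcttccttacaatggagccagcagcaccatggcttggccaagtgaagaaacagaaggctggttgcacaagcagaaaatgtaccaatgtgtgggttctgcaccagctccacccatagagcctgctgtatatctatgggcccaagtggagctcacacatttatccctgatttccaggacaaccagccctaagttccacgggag
Rnase2a, chr14:51256063-51256362, minus strand: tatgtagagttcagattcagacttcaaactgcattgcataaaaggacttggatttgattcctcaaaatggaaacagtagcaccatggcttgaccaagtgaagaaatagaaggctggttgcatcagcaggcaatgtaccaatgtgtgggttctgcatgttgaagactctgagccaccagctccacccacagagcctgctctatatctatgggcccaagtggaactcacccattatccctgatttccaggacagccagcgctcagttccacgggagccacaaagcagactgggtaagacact

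The Retnla window held TTCACAAGAA, a match to the element with 4 bases between, with its first base 145 bases before the start. The Chil3 window held TTCTTAGAA, a match to the shorter element, 172 bases before the start. Neither element was found in the windows of Ear2, Rnase2a, Mgl2, Il4ra, Stat6 or Pparg, which says only that these letters are not in the windows searched. Of 32851 mouse promoter windows of this length, 6.95% held the element with 4 bases between and 8.3% the element with 3. The PPAR and RXR repeat, 2 copies of AGGTCA with 1 base between them, searched on both strands, was in none of the windows of these genes and in 0.0396% of all windows. The Ear2 and Rnase2a windows were identical at 223 of 345 aligned positions (64.6%). Against the windows of the other genes, Ear2 and Rnase2a had identities of 39.4% to 48.6%.

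All 10 genes are protein coding. Ear2 (chr14:44102654-44103534) and Rnase2a (chr14:51255262-51256112) lie on chromosome 14, and Mgl2 (chr11:70130329-70137550) and Clec10a (chr11:70156197-70170834) lie side by side on chromosome 11, all in GRCm38. Retnla is at chr16:48842551-48844461, Chil3 at chr3:106147554-106167564, Ccl24 at chr5:135569937-135573049, Il4ra at chr7:125552120-125579474, Stat6 at chr10:127642986-127660957 and Pparg at chr6:115360951-115490399. Reads were 75 bases long, and 23.4% of the 75-base windows of the Ear2 transcripts also occur in transcripts of other genes, among them Ear10, Ear1 and the pseudogene Ear-ps2. For Chil3 it was 208 of 1606 windows (with Chil4 and Gm6522). The share was 7.95% for Il4ra (with Gm44876), 6.56% for Mgl2 and 4.44% for Clec10a, the last pair with each other. No window of Retnla, Rnase2a, Ccl24, Stat6 or Pparg was shared. The counts of Ear2 and Chil3 are therefore uncertain where reads could be split between copies.

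The first question was whether the receptor and transcription factors that carry the type 2 signal differed between genotypes. Values are the authors' normalized counts, which correct for library depth but not gene length, and ratios are log2 of Il10rb-/- over Il10rb+/- with a 95% interval that covers counting error only. Each group was 1 library, so the ratios at 1, 3 or 12 weeks have no replicates behind them.

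Il4ra, the shared receptor chain for IL4 and IL13, had 6102 normalized counts in controls against 5238 in Il10rb-/- MΦs at 1 week. It had 10187 against 10724 at 3 weeks, and 12137 against 17697 at 12 weeks. The level was higher at each later age in both genotypes, and the log2 ratio went from -0.22 (-0.28 to -0.16) at 1 week through 0.07 (0.02 to 0.13) to 0.54 (0.52 to 0.57) at 12 weeks. Stat6, which encodes the transcription factor downstream of this receptor, had 3835 normalized counts in controls against 3201 at 1 week, 3935 against 3891 at 3 weeks, and 3476 against 5358 at 12 weeks. Its values lay close together at every age but in the 12-week Il10rb-/- library, the highest of the 6. The Stat6 log2 ratios were -0.26 (-0.34 to -0.18), -0.02 (-0.10 to 0.07) and 0.62 (0.58 to 0.67).

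Pparg was far lower, with 103 normalized counts in controls against 138 at 1 week, 107 against 106 at 3 weeks, and 209 against 70.0 at 12 weeks. The 12-week libraries were the highest and the lowest of the 6. The log2 ratios were 0.42 (-0.00 to 0.84) at 1 week, -0.01 (-0.52 to 0.52) at 3 weeks and -1.58 (-1.89 to -1.27) at 12 weeks. At 12 weeks the Pparg level was thus 2.98-fold lower in Il10rb-/- MΦs, while Il4ra and Stat6 were 1.46-fold and 1.54-fold higher.

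The 2 macrophage galactose-type lectins, surface receptors that bind galactose and N-acetylgalactosamine on glycoproteins, were then compared. Mgl2 had 3492 normalized counts in controls against 4063 in Il10rb-/- MΦs at 1 week, 8425 against 6353 at 3 weeks, and 8826 against 816 at 12 weeks. The 12-week Il10rb-/- library was below all others, and its log2 ratio was -3.43 (-3.52 to -3.35), a 10.8-fold lower level. At 1 week the log2 ratio was 0.22 (0.15 to 0.29), and at 3 weeks it was -0.41 (-0.47 to -0.35). Clec10a, its neighbour on the chromosome, had 339 normalized counts in controls against 330 at 1 week, 1010 against 805 at 3 weeks, and 1362 against 706 at 12 weeks. The Clec10a log2 ratios were -0.04 (-0.29 to 0.21), -0.33 (-0.50 to -0.16) and -0.95 (-1.05 to -0.85). The difference at 12 weeks was therefore 1.93-fold for Clec10a and 10.8-fold for Mgl2.

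Ccl24, or eotaxin-2, a chemokine that attracts eosinophils through CCR3, had 175 normalized counts in controls against 138 in Il10rb-/- MΦs at 1 week. It had 1107 against 695 at 3 weeks, and 1055 against 114 at 12 weeks. The Il10rb-/- value was the lower at each age, and the distance was largest at 12 weeks. The log2 ratios were -0.35 (-0.73 to 0.02), -0.67 (-0.84 to -0.50) and -3.21 (-3.44 to -2.99), the last a 9.26-fold lower level.

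Retnla encodes RELMα, a secreted resistin-like protein, and had the widest range of the 10 in normalized counts. It had 438 normalized counts in controls against 620 in Il10rb-/- MΦs at 1 week, 38836 against 14214 at 3 weeks, and 52045 against 337 at 12 weeks. Among the 14097 genes of a library it ranked 43rd and 44th by normalized counts in the 3-week and 12-week Il10rb+/- libraries, and 6246th in the 12-week Il10rb-/- library. The Retnla log2 ratio was 0.50 (0.30 to 0.70) at 1 week and -1.45 (-1.48 to -1.42) at 3 weeks, a 2.73-fold lower level. At 12 weeks it was -7.27 (-7.40 to -7.15), a 155-fold lower level, and the Il10rb-/- value was below both values at 1 week.

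Chil3, which encodes the chitinase-like lectin Ym1 and is also abundant in monocytes, went the other way at 12 weeks. It had 0 reads in both 1-week libraries, where 3 reads would be 2.97 normalized counts for controls and 4.49 for Il10rb-/- MΦs, and no fold is given there. At 3 weeks it had 97.3 normalized counts in controls against 26.4 in Il10rb-/- MΦs, on 40 and 30 reads, with a log2 ratio of -1.88 (-2.62 to -1.16). At 12 weeks it had 63.4 against 493, a 7.78-fold higher level in Il10rb-/- MΦs with a log2 ratio of 2.96 (2.69 to 3.24). Chil3 and Retnla, often read together as a pair of type 2 products, thus lay in opposite directions at 12 weeks.

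The ribonucleases of the eosinophil-associated family, small secreted RNases with antimicrobial and leukocyte-attracting activity, were low at 1 week. Ear2 had 26.8 normalized counts in controls against 187 in Il10rb-/- MΦs at 1 week, 1078 against 339 at 3 weeks, and 667 against 84.1 at 12 weeks. The Il10rb-/- value was the higher at 1 week and the lower afterwards, with log2 ratios of 2.81 (2.20 to 3.46), -1.67 (-1.87 to -1.47) and -2.99 (-3.26 to -2.73). Rnase2a was on 0 reads for controls and on 3 reads for Il10rb-/- MΦs at 1 week, too few for a fold. It had 1385 normalized counts in controls against 182 at 3 weeks, and 834 against 8.91 at 12 weeks, the last on 14 reads. The Rnase2a log2 ratio was -2.93 (-3.16 to -2.70) at 3 weeks and -6.55 (-7.42 to -5.80) at 12 weeks, a 93.6-fold lower level.

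**Figure D1:**
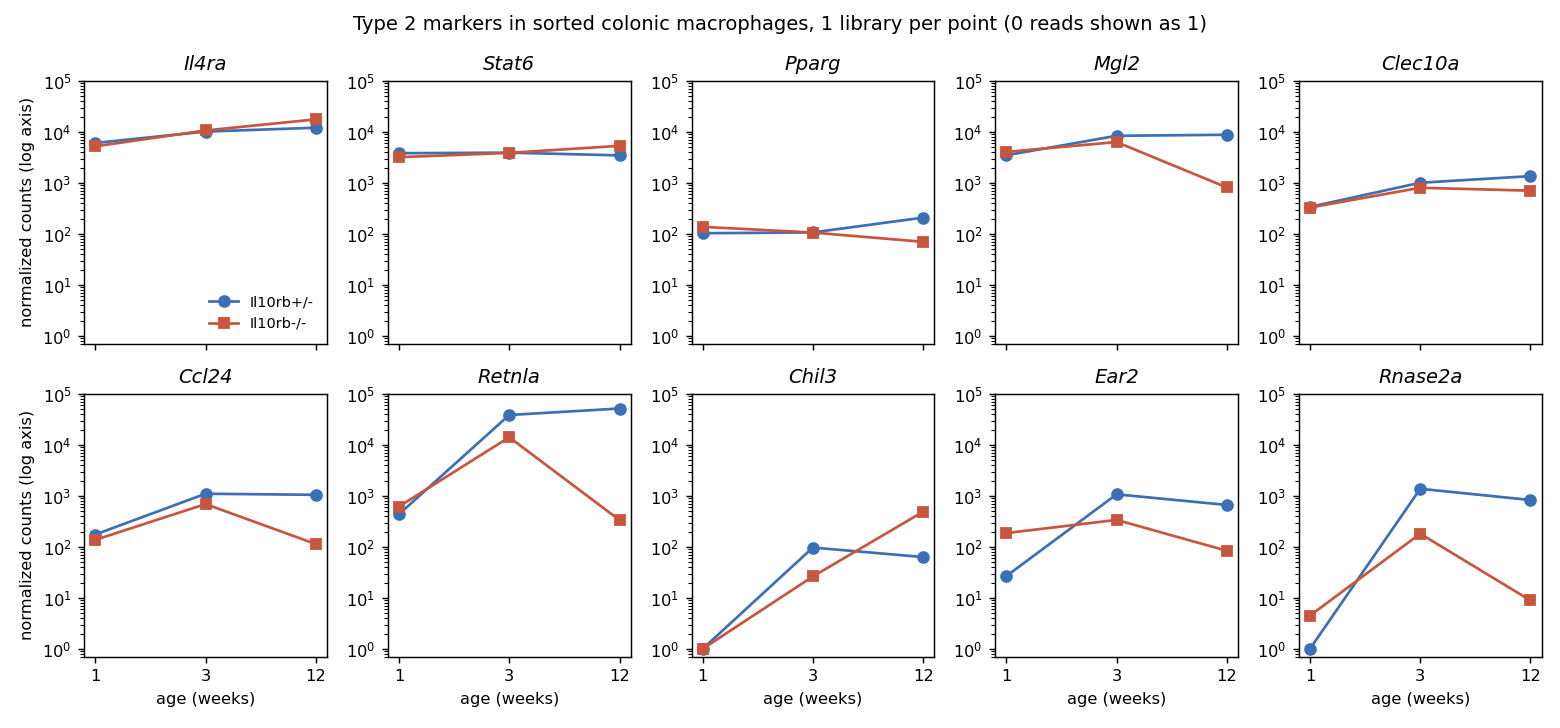
Normalized counts (log axis) of the 10 genes at 1, 3 and 12 weeks, 1 panel for each gene, with Il10rb+/- libraries in blue and Il10rb-/- libraries in red and 1 library for each point. Retnla lies at 52045 in the Il10rb+/- and 337 in the Il10rb-/- library at 12 weeks, while Il4ra lies at 12137 and 17697.

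The same genes were counted against the whole table with the study's threshold of 3-fold, among 11067 genes with at least 50 normalized counts in 1 library or more. At 12 weeks 5 of the 10 genes (Retnla, Mgl2, Ccl24, Ear2 and Rnase2a) were over 3-fold lower in Il10rb-/- MΦs, where 9.99% of all genes were, and 1 of 10 (Chil3) was over 3-fold higher, where 4.03% were. Pparg, at 2.98-fold, was just inside the limit, and it passed the limit under TMM or total scaling (log2 ratios of -1.59 and -1.80). At 3 weeks 3 of 10 (Chil3, Ear2 and Rnase2a) were over 3-fold lower, against 0.642% of all genes, and 0 of 10 were higher, against 1.34%. Retnla was just inside the limit at that age and Ear2, at 3.18-fold, just outside it. At 1 week 0 of 10 were over 3-fold lower, against 0.75% of all genes, and 2 of 10 were counted higher, against 2.75%. These were Ear2 and Rnase2a, the latter only because a count of 0 is listed as 1 in the table. Since Ear2 and Rnase2a were chosen by these ratios, nothing is read from their place in the counts. The median log2 ratio of the genes with a fold was 0.09 over 8 genes at 1 week, -0.54 over 10 at 3 weeks and -2.28 over 10 at 12 weeks. Without Ear2 and Rnase2a the medians were -0.04 over 7 genes, -0.37 over 8 and -1.26 over 8. The medians over all 11067 genes were -0.04, 0.02 and 0.04.

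**Figure D2:**
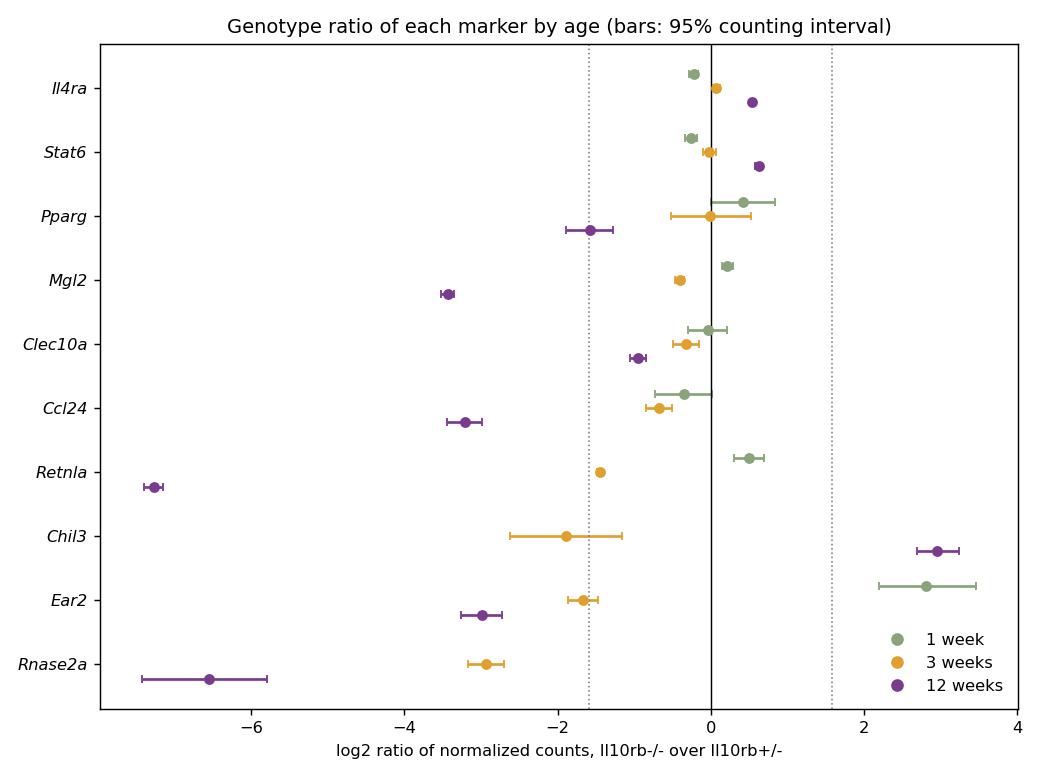
Log2 ratio of normalized counts, Il10rb-/- over Il10rb+/-, for each gene at 1, 3 and 12 weeks, with bars for the 95% counting interval and dotted lines at 3-fold, leaving out the pairs for which no fold is given. At 12 weeks Retnla (-7.27), Rnase2a (-6.55), Mgl2 (-3.43), Ccl24 (-3.21) and Ear2 (-2.99) lie below the lower line and Chil3 (2.96) above the upper line.

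The genotype effect over the 3 ages was fitted in limma, with age as a term, and its error is how much the effect varied between ages. It called 0 of the 11067 genes (0.0%) at an adjusted p of 0.05, with 853 genes at an unadjusted p under 0.05. The log2 fold change was -2.74 (SE 1.41) for Retnla, -1.21 (SE 0.69) for Mgl2, -1.41 (SE 0.57) for Ccl24 and -0.44 (SE 0.22) for Clec10a, with limma adjusted p of 0.627, 0.630, 0.627 and 0.627. For Chil3, Il4ra, Stat6 and Pparg it was 0.37 (SE 1.00), 0.13 (SE 0.21), 0.12 (SE 0.22) and -0.39 (SE 0.43), with limma adjusted p of 0.913, 0.841, 0.867 and 0.769. None of the 8 genes tested passed. As a description, the values were -0.63 (SE 1.06) for Ear2 and -2.62 (SE 1.41) for Rnase2a. Without the 12-week libraries the estimate for Retnla was -0.48, and those for Chil3, Il4ra, Stat6 and Pparg changed sign, as did the description for Ear2 (0.55).

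The second question was how the program differs between ages. The age and genotype ratios share libraries, so they are not separate evidence, and the age ratios of Ear2 and Rnase2a use the same libraries as those that chose them. In Il10rb+/- MΦs, the level at 3 weeks was above that at 1 week 88.6-fold for Retnla, 40.3-fold for Ear2 and 6.31-fold for Ccl24. Rnase2a and Chil3 started from 0 reads, and their levels at 3 weeks were at least 466-fold and at least 32.7-fold higher than 3 reads at 1 week. Clec10a was 2.98-fold and Mgl2 2.41-fold higher, Il4ra 1.67-fold, and Stat6 and Pparg were 1.03-fold and 1.04-fold higher. Thus 5 of 10 genes were over 3-fold higher, where 5.2% of all genes were.

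In Il10rb-/- MΦs, the level of Retnla at 3 weeks was 22.9-fold above that at 1 week, Ccl24 was 5.04-fold, Clec10a 2.44-fold, Il4ra 2.05-fold, Ear2 1.81-fold and Mgl2 1.56-fold higher. Rnase2a, from 3 reads at 1 week, had a log2 ratio of 5.34 (3.77 to 7.63), and Chil3, from 0 reads, was at least 5.87-fold higher than 3 reads. This put 4 of 10 genes over 3-fold higher, where 3.88% of all genes were. The products that were near 0 at 1 week were therefore present by 3 weeks in both genotypes.

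From 3 to 12 weeks the genotypes had different patterns. In Il10rb+/- MΦs 0 of 10 genes passed 3-fold upward and 0 of 10 downward, against 5.41% and 0.949% of all genes, and the log2 ratios lay between -0.73 for Rnase2a and 0.96 for Pparg. In Il10rb-/- MΦs 5 of 10 were over 3-fold lower, against 8.45% of all genes: Retnla was 42.2-fold, Rnase2a 20.4-fold, Mgl2 7.78-fold, Ccl24 6.09-fold and Ear2 4.04-fold lower. Since Ear2 and Rnase2a were picked for low values in Il10rb-/- MΦs, nothing is read from their part in this count, and the other 3 are Retnla, Mgl2 and Ccl24. Chil3, at 18.7-fold, was the 1 of 10 over 3-fold higher, against 5.75% of all genes. Il4ra was 1.65-fold higher and Clec10a 1.14-fold lower. With 1 library for each genotype and age, the difference between the genotypes in these steps was not tested.

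In the limma fit across both genotypes, 3 weeks over 1 week called 2 genes (0.0181% of 11067, 957 at an unadjusted p under 0.05) and 12 weeks over 3 weeks called 3 (0.0271%, 2261 unadjusted), and 0 of the 10 genes were among them. For 3 weeks over 1 week, Clec10a had a log2 fold change of 1.43 (SE 0.27, limma adjusted p 0.213), Rnase2a of 7.25 (SE 1.72, 0.298), Chil3 of 4.70 (SE 1.23, 0.342) and Retnla of 5.49 (SE 1.72, 0.438). The SE of the Clec10a step was the smallest of these, and its values in the 2 genotypes were the closest. The Rnase2a and Chil3 steps rest on 3 reads or fewer at 1 week, and with a pseudocount of 10 they were 5.36 and 2.51. For 12 weeks over 3 weeks the limma adjusted p of the 10 genes lay between 0.327 and 0.867.

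Divided by exon length, the order of the genes in Il10rb+/- MΦs at 3 weeks was led by Retnla at 64836 normalized counts per kilobase. Mgl2 (4023), Rnase2a (2007), Il4ra (1697) and Ear2 (1499) followed, then Stat6 (894), Ccl24 (855), Clec10a (348), Chil3 (59.6) and Pparg (36.3). At 12 weeks Retnla was at 86886 per kilobase in Il10rb+/- MΦs and 562 in Il10rb-/- MΦs, and in the latter Il4ra (2949) and Stat6 (1217) led the set. No replicate libraries exist to say which neighbours in these orders differ beyond their spread.

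The other genes of the type 2 pathway were described from lists. The IL4 and IL13 receptor and ligand list had 7 of 9 genes in the table (Il13 and the decoy receptor Il13ra2 were not listed) and 6 at or over the limit of 50. In the 12-week pair all 6 had higher values in Il10rb-/- MΦs, where 5759 of all 11067 genes did. Of the 6, 0 were over 3-fold higher, against 4.03% of all genes. Their median log2 ratio was 1.06 beside 0.04 over all genes. The log2 ratios at 12 weeks were 1.39 (1.33 to 1.44) for Il2rg, the common γ chain, and 1.53 (1.45 to 1.61) for Jak3, the kinase it carries. They were 1.12 for Il13ra1, the partner chain for IL13, 0.99 for Jak2, 0.68 for Tyk2 and 0.12 for Jak1. The same list had medians of -0.08 at 1 week and 0.15 at 3 weeks. Il4 itself, under the limit of 50, was at 14.7 normalized counts or less in every library. At 12 weeks it went the other way from these 6 genes, with 1.91 normalized counts in Il10rb-/- MΦs against 14.7 in controls. This rests on only 3 and 31 reads, and the log2 ratio was -2.94 (-5.29 to -1.26).

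Of 16 genes for STAT6 signalling and its partners, 10 had higher and 6 lower values at 12 weeks (median log2 ratio 0.51). Only Irf4, a transcription factor of alternative activation, was over 3-fold apart, where 9.99% of all genes were lower and 4.03% higher. Its log2 ratio was -1.60 (-1.67 to -1.52), from 3528 to 1168 normalized counts. The transcription factor genes Myc (-1.55), Batf3 (-1.39) and Rxra (-1.03) also had lower values. The cytokine signalling inhibitors Cish (1.37) and Socs1 (1.34) had higher values.

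Of 30 alternative activation targets, 29 reached the limit. In the 12-week pair 11 lay below the 3-fold limit, against 9.99% of all genes, and 8 above it, against 4.03%. The median log2 ratio was -0.28. Arg1, the arginase that makes ornithine, had 3.78 normalized counts in controls against 931 in Il10rb-/- MΦs, with a log2 ratio of 7.94 (6.96 to 9.16). The arginine transporter Slc7a2 had a log2 ratio of 4.97 (4.63 to 5.32). The haemoglobin scavenger receptor Cd163 was at 4112 and 52.2 (-6.30), the mannose receptor Mrc1 at 12185 and 618 (-4.30), the lectin Cd209d at 137 and 5.09 (-4.75) and the fatty acid receptor Cd36 at 6752 and 448 (-3.91), Il10rb+/- first. The list thus held large differences in both directions. At 3 weeks 3 of the 29 lay above the 3-fold limit (1.34% of all genes) and 1 below it (0.642%), with a median of -0.07. The 1 below was Arg1, on 18 and 3 reads, with a log2 ratio of -4.05 (-6.46 to -2.28).

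Eotaxins and type 2 chemokines had 5 of 8 genes over 3-fold lower at 12 weeks, against 9.99% of all genes. They had 1 over 3-fold higher, against 4.03%, and the median log2 ratio was -1.96. Genes such as Ccl11 reach the limit through the library where they are high, so nothing is read from this count. Ccl7 was at 27828 and 660 normalized counts (-5.40), Ccl2 at 31968 and 1720 (-4.22) and Ccl8 at 1424 and 283 (-2.33), Il10rb+/- first. These are monocyte-attracting chemokines that also bind receptors on type 2 cells. Ccl11, eotaxin-1, was at 52.5 in Il10rb+/- MΦs and had 0 reads in Il10rb-/- MΦs, at least 27.5-fold lower against 3 reads, and the eotaxin receptor Ccr3 was at 52.0 and 17.2 (-1.60). Ccr8, a chemokine receptor gene, was at 8.51 and 94.2 (3.47). At 3 weeks 3 of the 8 lay above the 3-fold limit (1.34% of all genes) and 1 below it (0.642%), with a median of 0.07. The T cell-attracting chemokines Ccl22 and Ccl17 had log2 ratios of 2.75 and 1.73 at 3 weeks, and of 1.09 and -0.08 at 12 weeks.

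Among 11 PPARγ targets at or over the limit, 3 were over 3-fold lower at 12 weeks, against 9.99% of all genes. All 3 were lipid-handling genes: Cd36, which is on both lists, Fabp4 (824 and 99.3 normalized counts, -3.05) and Lpl (1919 and 334, -2.52). The median of the list was -0.05. Acadl (1.52) and Nr1h3 (1.30) had higher values and Hmox1 (-0.78) a lower one. The list had 0 genes over 3-fold apart at 3 weeks, where 1.34% of all genes were higher and 0.642% lower. At 1 week 3 were over 3-fold higher, against 2.75% of all genes.

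The families of the secreted products were sparse. Of 21 RNase A family genes, 3 were in the table beside Ear2 and Rnase2a. Rnase4 had 3100 normalized counts in controls against 3373 at 1 week, 2840 against 1913 at 3 weeks, and 2456 against 277 at 12 weeks, a log2 ratio of -3.15 (-3.29 to -3.01) at 12 weeks. Ang, angiogenin, was at 72.8 and 14.6 at 12 weeks (-2.31), and Rnase6 at 493 and 784 (0.67). Of the chitinase-like and resistin-like genes, Chil1 was at 281 and 19442 at 12 weeks, a log2 ratio of 6.11, after 2.77 at 1 week and 2.40 at 3 weeks, and Retnlg was at 346 and 471 (0.45). Ctbs (0.45) and Chid1 (-0.36) had smaller ratios, and Chil4 and Retn were not listed.

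**Figure D3:**
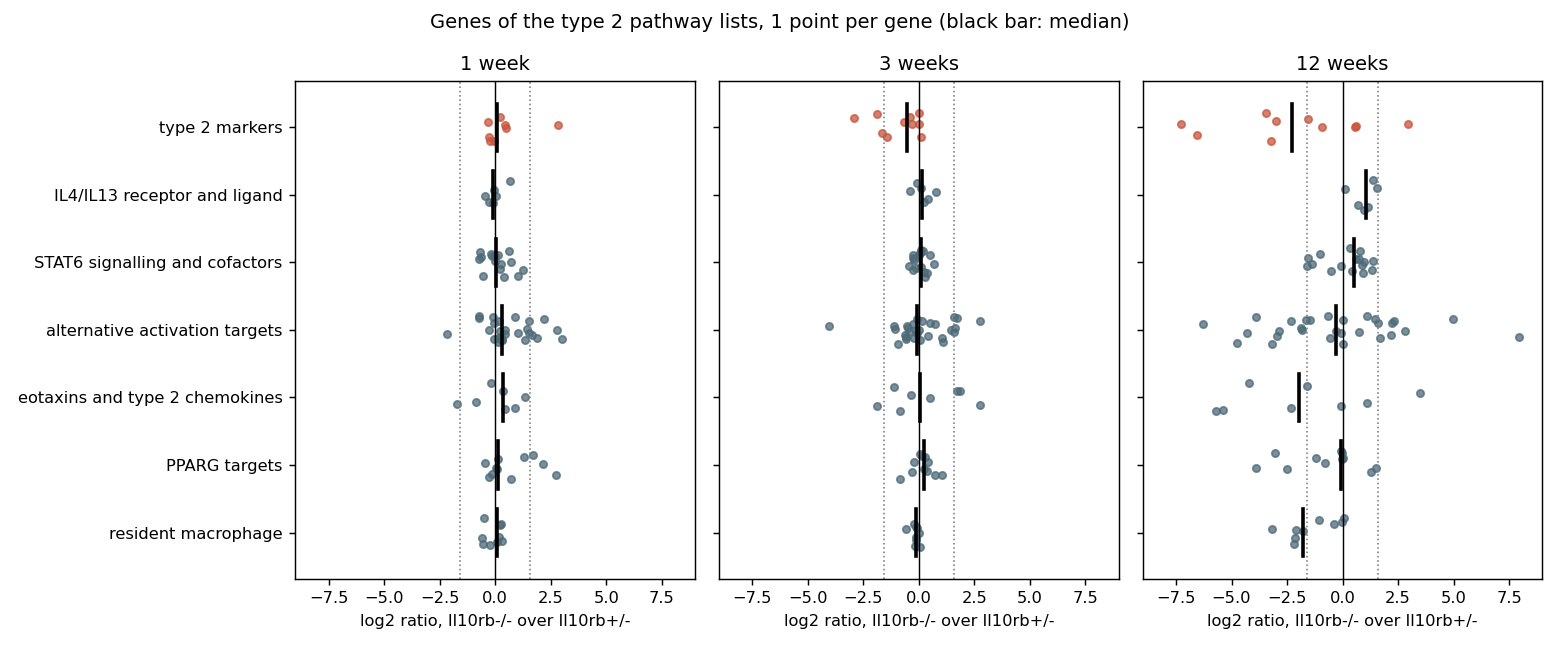
Log2 ratio of normalized counts, Il10rb-/- over Il10rb+/-, at 1, 3 and 12 weeks for the type 2 markers and 6 gene lists, with 1 point a gene, 0 reads taken as 1 normalized count, and a bar at the median. At 12 weeks the median is -2.28 for the markers, or -1.26 without Ear2 and Rnase2a, which were picked for lower values in Il10rb-/- MΦs. It is 1.06 for the IL4 and IL13 receptor list and -1.96 for the eotaxins and type 2 chemokines.

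Markers of other cells were summed in each library because some of these genes are also made by eosinophils and monocytes. In bulk RNA, fewer cells of a type and less RNA per cell cannot be told apart. The labelled cell type was present by its markers: the 9 resident MΦ markers summed to 209353 to 231798 normalized counts in the Il10rb+/- libraries and to 215200, 210742 and 95341 in the Il10rb-/- libraries at 1, 3 and 12 weeks. By 12 weeks, 5 of these 9 differed over 3-fold, all lower, where 9.99% of all genes were. They were Cx3cr1 (-3.16), C1qc (-2.18), Adgre1 (-2.12), C1qa (-2.08) and C1qb (-1.80). Eosinophil markers had 5 of 8 genes in the table, summing to 236, 190 and 449 in the Il10rb+/- and 157, 164 and 93.0 in the Il10rb-/- libraries at 1, 3 and 12 weeks. All 3 at or over the limit were over 3-fold lower at 12 weeks, where 9.99% of all genes were. They were Alox15, from 238 to 32.5 normalized counts (-2.87), Siglecf, from 122 to 29.3 (-2.06), and Ccr3 (-1.60). Genes can reach the limit through the library where they are high, so nothing is read from this count. Alox15 is also on the alternative activation list, and Il5ra, under the limit, was on 24 and 13 reads (-0.45). The defining eosinophil granule gene Prg2 had 0 reads in 3 libraries and was at 26.0 normalized counts at most, and Epx, Prg3 and Gata1 were not listed.

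The 5 monocyte markers, Chil3 among them, summed to 4310, 21330 and 13458 in the Il10rb+/- and 11088, 21484 and 32002 in the Il10rb-/- libraries at 1, 3 and 12 weeks. In the 12-week pair 4 of 5 were over 3-fold higher in Il10rb-/- MΦs, against 4.03% of all genes. Chil3 is 1 of the 4, so this count is not separate from its ratio above. The log2 ratios were 4.19 for Ly6c2 and 3.26 for Plac8. Neutrophil markers summed to 1419 to 1515 in the Il10rb+/- libraries and to 1564, 2131 and 11718 in the Il10rb-/- libraries. All 4 at or over the limit were over 3-fold higher at 12 weeks, against 4.03% of all genes, S100a8 from 12.8 to 1673 among them. Only 1 of the 4 had more than 3 reads in either 1-week library. The limit can be reached through the 12-week Il10rb-/- library alone, so nothing is read from this count. Dendritic cell markers summed to 11294 and 40423 at 12 weeks and epithelial markers to 443 and 1416, Il10rb+/- first. Of the 6 dendritic cell markers at or over the limit, 1 was over 3-fold higher, against 4.03% of all genes. Their median log2 ratio was 0.97, and Cd209a, the 1 with a lower value, was at 130 and 47.1 (-1.46). Epithelial markers also differed at 1 week, at 89.2 and 641, and went the other way at 3 weeks, at 798 and 491. Of 6 mast cell and basophil markers only Hdc was listed, at 110 and 3749 at 12 weeks. The part of these cells in the 12-week ratios of the type 2 markers was not tested.

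**Figure D4:**
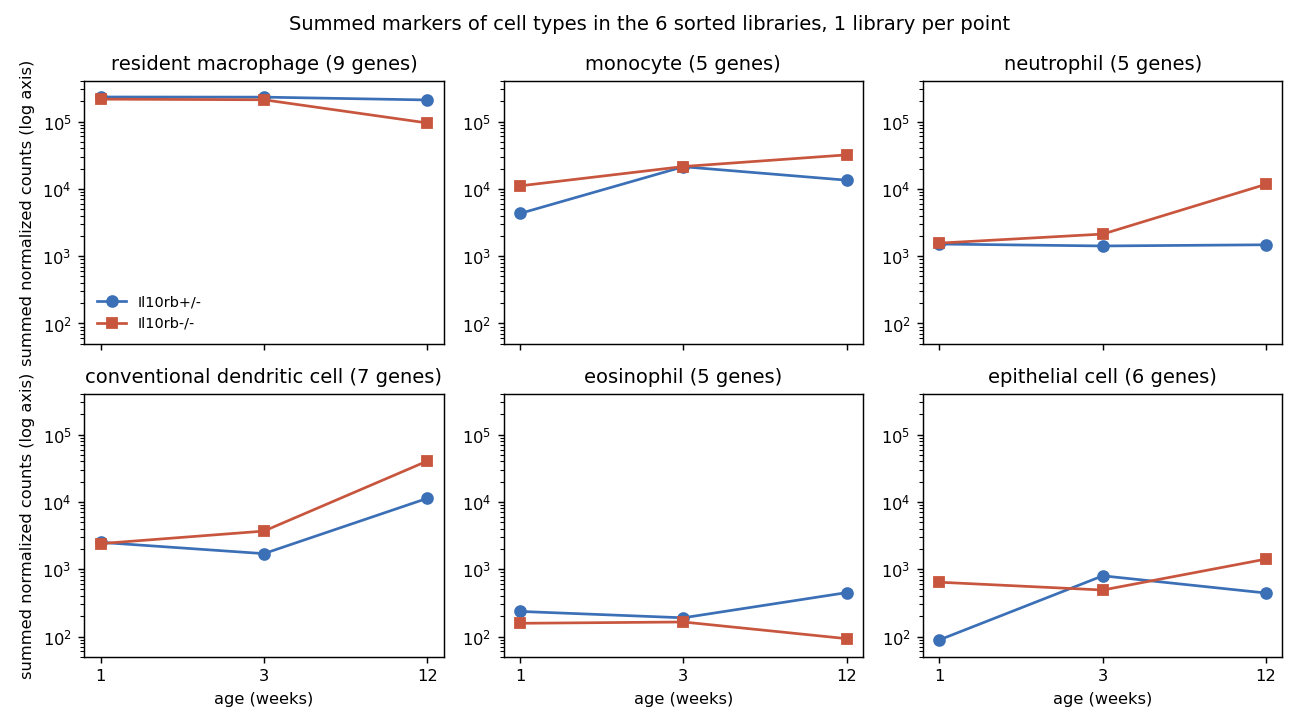
Summed normalized counts of the marker genes of 6 cell types in each of the 6 libraries (log axis), with Il10rb+/- libraries in blue and Il10rb-/- libraries in red. At 12 weeks the resident MΦ sum is 209353 in Il10rb+/- and 95341 in Il10rb-/- MΦs, and the neutrophil sum is 1477 and 11718.

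The genes whose log2 values were most like each marker over the 6 libraries were Epb41l1 and Ccdc171 for Retnla (Pearson r of 0.9963 and 0.9953), Cd93 and Ccdc171 for Ccl24 (0.9931 and 0.9916) and Ankrd13b and Tceal8 for Mgl2 (0.9983 and 0.9949). For Clec10a they were Alox15, a lipoxygenase gene, and the lectin gene Cd209a (0.9968 and 0.9933), and for Rnase2a and Ear2 they were Glp2r and Gas2l1 (0.9921 and 0.9916) and Ip6k3 and Rgs18 (0.9897 and 0.9885). For Chil3 they were Il27ra and Pard6a (0.9939 and 0.99), for Il4ra Plekhb2 and Hk1 (both 0.9986), for Stat6 Psd4 and Slc35e1 (0.9938 and 0.99) and for Pparg Abl2 and Mina (0.9913 and 0.9904). Among the markers themselves, Retnla was closest to Ccl24 (0.9905) and Rnase2a (0.9687), and Chil3 to Il4ra (0.9662). These values come from 6 points that share libraries, depth and the same age and genotype steps, with 11067 genes searched, and are a description only.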

How the data were processed

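RNA-seq was performed on FACS-sorted P3/P4 MΦs in 6 libraries, 1 for each genotype and age, grouped by the genotype and age in the labels. Each value in the deposited table is a signal per gene: the authors trimmed single-end reads (Trim Galore), mapped them to mm10 (TopHat), took gene counts from HTSeq and scaled each library by the size factor from DESeq, listing a count of 0 as 1. The versions of these tools, the annotation and the strand setting are not given in the sources used here. Leaving out values of 1, 100% of the values of a library fell on whole multiples of the same step (tolerance 0.01), from which reads were read back. The depth was 6700337 to 40754971 reads, and 50 normalized counts stood for 20.5 to 106 reads. The values are not gene-length scaled.

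For the 1-week pools the number of mice differs between the labels and the study, as does the library preparation (a SMART-Seq kit or oligo dT selection).

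Ratios are log2 of normalized counts with exact Clopper-Pearson 95% intervals for counting error only. Folds against 0 reads are lower bounds from 3 reads, ratios against 1 to 3 reads are given with their interval, and no fold is given where both libraries are at or under 3 reads. Across ages and genotypes, limma 3.58.1 (R 4.3.3) was fitted on log2(value + 1) with additive genotype and age terms, a mean-variance trend and two-sided tests adjusted by Benjamini-Hochberg over 11067 genes. It cannot test 1 age, and its error is the spread of the fitted effect between these 6 libraries. Python 3.11.15 with numpy 2.4.6, pandas 2.3.3, scipy 1.17.1, matplotlib 3.10.9 and Biopython 1.88 did the rest. The fit and the intervals were tested on simulated data. Alternatives changed the pseudocount (10), scaling, filter, fold limit (2), trend, age term and libraries.

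Exon lengths and coordinates came from GENCODE (GRCm38), in which 14085 of 14097 genes were found. Promoter windows came from RefSeq (GRCm38.p6) and were matched for 8 of the 10 genes, not for Clec10a and Ccl24. Protein sequences were not used here.

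The genes and lists were chosen with earlier results of these data known. From the IL4 and IL13 receptor and the RNase A lists, every gene in the table was named. From the other lists, up to 6 with the largest absolute log2 ratio at 12 weeks among genes with at least 50 normalized counts in 1 of the 12-week libraries were named, with the defining markers of other cells, and the 2 genes most like each marker by Pearson r. Lists of type 2 alarmins and of type 2 lymphocyte markers were also measured. The value of 1 monocyte marker is not reported here.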

Additional observations from a re-analysis of the deposited data

Results flagged for a closer look

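For 6 of the markers the ratio between genotypes had opposite signs at 2 ages with both 95% counting intervals clear of 0, which is a difference between ages under the same contrast. With 1 library for each genotype and age, none of these differences was tested, and the values are log2 ratios, Il10rb-/- over Il10rb+/-. Retnla was at 0.50 at 1 week and -7.27 at 12 weeks, 7.77 apart. Ear2 was at 2.81 at 1 week and -2.99 at 12 weeks, 5.79 apart, and it was picked for its lower values in Il10rb-/- MΦs. Chil3 was at -1.88 at 3 weeks, on 40 and 30 reads, and 2.96 at 12 weeks, 4.84 apart. Mgl2 was at 0.22 at 1 week and -3.43 at 12 weeks, 3.65 apart. Stat6 was at -0.26 at 1 week and 0.62 at 12 weeks, 0.89 apart. Il4ra was at -0.22 at 1 week and 0.54 at 12 weeks, 0.76 apart. Pparg also had opposite signs, at 0.42 at 1 week and -1.58 at 12 weeks, but its 1-week interval (-0.00 to 0.84) held 0.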

How the results depend on the processing

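Of the 28 marker ratios with a fold, 0 changed sign under TMM scaling, scaling by total or a pseudocount of 10. TMM scaling moved 0, total scaling 6 (by at most 0.22) and the pseudocount 1 (by 1.07). Total scaling put the median log2 ratio of all genes at 12 weeks at -0.19, against 0.04 as deposited, so values there are relative to that shift. The 387, 219 and 1552 genes over 3-fold at 1, 3 and 12 weeks became 1124, 895 and 2947 without a filter and 770, 548 and 2718 at 2-fold. With the filter on the 2 libraries compared they became 133 at 1 week and 105 at 3 weeks, and the markers counted higher at 1 week went from 2 to 1. Under TMM and under total scaling the markers over 3-fold lower at 12 weeks went from 5 to 6, as Pparg passed the limit. In limma the genotype effect called 1 gene with a pseudocount of 10, 1 without the age term and 3 to 61 in leave-one-out fits (20 without the 1-week, 3 without the 3-week and 61 without the 12-week libraries). The 3 to 1 week step called 8 with a pseudocount of 10 and 0 without the trend. The 12 to 3 week step called 8 with a pseudocount of 10, 0 without the trend and 0 under total scaling. For these counts the cause was not tested. Signs that changed were those of values no setting called: without the 12-week libraries, the genotype effect of Chil3 (-0.92, with a leave-one-out range up to 1.47), Il4ra (-0.073, up to 0.31), Stat6 (-0.14, up to 0.30) and Pparg (0.20, down to -0.79) and the description for Ear2 (0.55), and under total scaling Stat6 at 3 over 1 week (-0.00070) and Clec10a (-0.21), Stat6 (-0.19) and Pparg (-0.14) at 12 over 3 weeks. Over all settings the adjusted p of the markers lay between 0.408 and 0.994 for genotype, 0.189 and 1.00 for 3 over 1 week and 0.231 and 0.890 for 12 over 3 weeks. Count models were planned only for a table of counts. They were not run, because the table as given holds normalized values with zeros replaced by 1, although reads could be read back from it. Age fits without a genotype were not run, since 1 library an age is left. Each group was 1 library and no pairing by replicate was used, so the age term is what matches the libraries.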

Other observations

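The receptor for the alarmin IL33, Il1rl1, was at 88.4 normalized counts in Il10rb+/- MΦs at 12 weeks and on 1 read in Il10rb-/- MΦs, with a log2 ratio of -7.12 and a wide counting interval (-12.4 to -4.62). Of the 5 alarmin and cytokine receptor genes at or over 50 normalized counts, it was the only 1 over 3-fold lower at 12 weeks. Among all genes 9.99% were. In this list 0 were over 3-fold higher, against 4.03% of all genes, and the median was 0.52. The Il1rl1 log2 ratio was -2.21 (-3.14 to -1.40) at 1 week, on 98 and 14 reads, and -0.71 (-1.25 to -0.15) at 3 weeks. The IL5 and GM-CSF receptor chain Csf2rb had a log2 ratio of 1.29 (1.26 to 1.32) at 12 weeks, Csf2ra of 0.56, the TSLP receptor Crlf2 of 0.52 and Tslp of -0.53. The 6 listed type 2 lymphocyte markers summed to 614, 730 and 2205 normalized counts in the Il10rb+/- libraries and to 533, 1082 and 1440 in the Il10rb-/- libraries at 1, 3 and 12 weeks. These lists share Il1rl1.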
